A study of Mus musculus with 54 samples.

Results

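The MPP4 gate (iMPP6 in the sample labels) is a sorted population of multipotent progenitors, and it was examined here in unperturbed mice. Its cells were taken from the deposited cell annotation as those with the steady-state entry and the phenotype MPP4, so no measured expression value chose them. There were 78 such cells, which were 6.14% of the 1270 annotated steady-state cells and came from 3 libraries: 55 from L40, 16 from L52 and 7 from L53. They were set against the MPP1 gate (iMPP3; 51 cells of L37 and 21 of L51), the MPP2 gate (iMPP4; 50 cells of L38, 8 of L51 and 14 of L52) and the MPP3 gate (iMPP5; 52 cells of L39 and 24 of L52). The LMPP gate (iMPP2; 24 cells of L16 and 7 of L42), which stands for lymphoid-primed multipotent progenitors, served as a second comparison. The whole series held 2301 annotated cells in 54 libraries. All of these groups came from C57BL/6 mice 8 to 10 weeks old with no stated treatment or engineered allele. L40, L37, L38, L39, L16 and L42 are labelled as bone marrow, whereas L51, L52 and L53 are labelled as bone marrow and spleen together. The labels name each gate without the antibodies that drew it. They do not say how many animals gave each library either, so a p-value here measures the spread between libraries of sorted cells, which may be technical.

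Multipotent progenitors lie directly downstream of the haematopoietic stem cell and divide into subsets that lean towards different blood lineages. MPP2 is known for megakaryocyte and erythroid output, MPP3 for granulocyte and monocyte output, and MPP4 for lymphoid output, while MPP1 is the subset nearest to the stem cell. Lymphoid priming is the early transcription of lymphoid genes in a cell that has not yet committed. The marker genes used for MPP4 were Flt3, the receptor tyrosine kinase for FLT3 ligand, Dntt, the terminal transferase that adds untemplated bases at antigen-receptor joints, and Notch1, the receptor whose signal starts T cell development. Surface FLT3 protein is commonly used to draw an MPP4 gate, so Flt3 RNA checks the label more than it adds a finding.

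Dntt and Flt3 were higher in each MPP4 library than in any library of MPP1, MPP2 or MPP3, and their promoters are shown so that the start regions of both genes can be compared. Each window runs from 250 bases before to 50 bases after the RefSeq start on GRCm38.p6, on the gene's own strand. Dntt lies on chromosome 19 with its window at chr19:41029025-41029324 on the plus strand, and Flt3 lies on chromosome 5 with its window at chr5:147400440-147400739 on the minus strand. Capitals mark the E-box CANNTG, the 6-base motif read by basic helix-loop-helix factors, which reads as CANNTG on both strands. The Dntt window held 3 matches and the Flt3 window held 2. Such matches were common: 72.1% of the 68 windows that belong to 41 of the genes called higher in MPP4 held at least 1, against 72.3% of all 32851 RefSeq windows of this length.
Dntt: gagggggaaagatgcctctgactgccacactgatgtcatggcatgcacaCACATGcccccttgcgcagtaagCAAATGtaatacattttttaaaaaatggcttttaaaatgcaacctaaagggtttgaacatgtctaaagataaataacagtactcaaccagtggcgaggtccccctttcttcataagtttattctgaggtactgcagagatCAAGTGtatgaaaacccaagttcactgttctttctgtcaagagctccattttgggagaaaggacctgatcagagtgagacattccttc
Flt3: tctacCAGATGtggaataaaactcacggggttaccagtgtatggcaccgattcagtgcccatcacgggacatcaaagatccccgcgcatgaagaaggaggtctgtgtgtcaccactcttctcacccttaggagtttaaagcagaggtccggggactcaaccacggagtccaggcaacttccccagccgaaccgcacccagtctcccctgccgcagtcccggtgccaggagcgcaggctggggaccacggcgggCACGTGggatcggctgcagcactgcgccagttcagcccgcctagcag

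Single sorted cells were sequenced at the 3′ ends of their transcripts by a variant of Smart-seq2. Counts of a gate were summed within each library before any test, since cells of 1 library are not replicates, and levels are given as CPM (counts of a gene per 1000000 counts of the sum) after scaling between sums by the trimmed mean of M-values (TMM), except where unscaled CPM is named. Levels of different genes are not compared with each other. The 3 MPP4 sums held 27619476, 4119712 and 5678215 counts in L40, L52 and L53, and the 10 sums of the 4 gates spanned 2347770 to 27619476. An MPP4 cell had a median of 426670 counts and 7166 detected genes, against a median of 315881 counts in MPP1, 287112 in MPP2 and 476042 in MPP3.

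Library L53 stood apart among the MPP4 libraries. It also contains CD4+ and CD8+ T cells, and each of its 7 MPP4 cells carried between 10 and 67 counts of Cd3d, a chain of the T cell receptor complex. In unscaled CPM, Cd3d stood at 47.6 in MPP4 of L53, 0 in MPP4 of L52 and 0.362 in MPP4 of L40, while the T cells of L53 had 1646. MPP4 of L53 thus held 2.89% of the T cell level of Cd3d, and 1.70%, 2.84% and 1.29% of the T cell levels of Cd3g, Cd8a and Cd8b1. Of 18 T cell genes, 13 were highest in L53 among the MPP4 sums, against 30.3% of all genes tested. The relation ran the other way as well. In the T cells of L53, Dntt had 59.9 unscaled CPM, Flt3 16.9 and Wfdc17 24.04, between 4.57% and 4.90% of their MPP4 levels in that library, whereas T cells of L2, a library without MPP4 cells, had 0.136, 0.136 and 7.21. A smaller relation of this kind appeared in L52, which holds MPP2, MPP3 and MPP4 cells. Dntt had 12.7 unscaled CPM in MPP2 and 8.68 in MPP3 of L52, or 2.62% and 1.79% of its MPP4 level there, against 0 to 0.852 in the MPP2 and MPP3 sums of other libraries. The part of these shared transcripts in the results was not tested, so counts of called genes are given with and without L53.

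**Figure D1:**
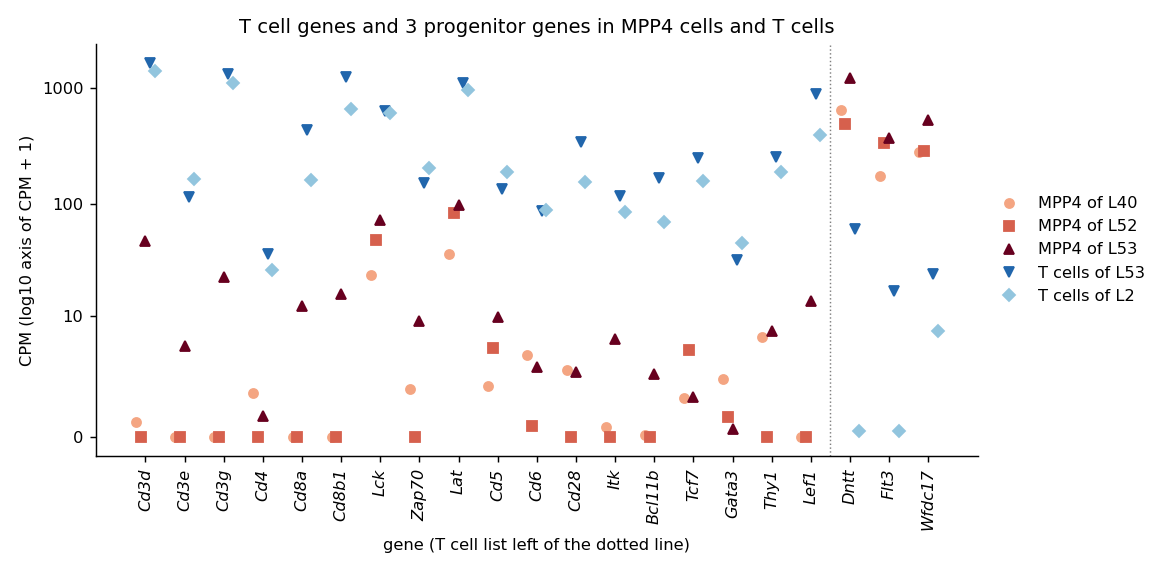
Unscaled CPM, on a log10(CPM + 1) axis, of the T cell list and of Dntt, Flt3 and Wfdc17 in MPP4 cells of L40, L52 and L53 and in T cells of L53 and L2; each point is 1 gate within 1 library. Cd3d reaches 47.6 CPM in MPP4 of L53, against 0 in L52 and 0.362 in L40, and Dntt reaches 59.9 CPM in the T cells of L53, against 0.136 in those of L2.

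The marker genes bore out the label for Flt3 and Dntt and less clearly for Notch1. Flt3 had 177, 341 and 374 CPM in MPP4 of L40, L52 and L53, against 5.33 and 6.30 in MPP1, 9.82, 33.8 and 14.3 in MPP2, and 1.87 and 9.69 in MPP3. The lowest MPP4 sum lay above the highest sum of the other gates. Its log2 fold change against the mean of the 3 other gates was 5.11 (SE 0.79, edgeR quasi-likelihood test, adjusted p = 0.000208). Here and below, that mean is taken over the fitted log2 levels of the 3 gates with equal weight. A gate near 0 therefore pulls it far down, and it is not the mean of the CPM values. Dntt had 654, 496 and 1245 CPM in MPP4, against 0 and 0.788 in MPP1, 0, 0.825 and 12.3 in MPP2, and 0.406 and 9.44 in MPP3. The groups did not overlap, and the highest sums of MPP2 and MPP3 were both those of L52. Its log2 fold change was 8.72 (SE 1.35, adjusted p = 0.000208), and without L53 it was 8.24 (adjusted p = 0.00329).

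Notch1 had 48.7, 49.4 and 256 CPM in MPP4, against 15.1 and 18.9 in MPP1, 4.80, 30.5 and 2.51 in MPP2, and 37.1 and 32.3 in MPP3. Every MPP4 sum lay above every other sum, but L53 was far above L40 and L52. The log2 fold change was 2.60 (SE 0.80, adjusted p = 0.144), which did not pass the threshold of 0.05, and without L53 it was 1.34. With the library as a block in limma-voom, Notch1 did pass (log2 2.15, adjusted p = 0.00901). The other gate surface genes were mixed. Ly6a, the gene of the stem cell antigen SCA-1, had 118, 157 and 407 CPM in MPP4 and rose by 3.35 on the log2 scale against the mean (adjusted p = 0.000358), although MPP1 with 187 and 89.4 overlapped MPP4. Cd34, a sialomucin of progenitors, had 512, 573 and 547 CPM in MPP4, above all 7 other sums, yet its log2 difference of 1.94 had an adjusted p of 0.0625. Cd48, an adhesion receptor absent from most stem cells, differed by 2.04 (adjusted p = 0.392), and Slamf1, the gene of the stem cell antigen CD150, by -3.31 (adjusted p = 0.51). Kit, the receptor of stem cell factor, had 126, 181 and 261 CPM in MPP4, within the 110 to 274 CPM of the other gates.

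**Figure D2:**
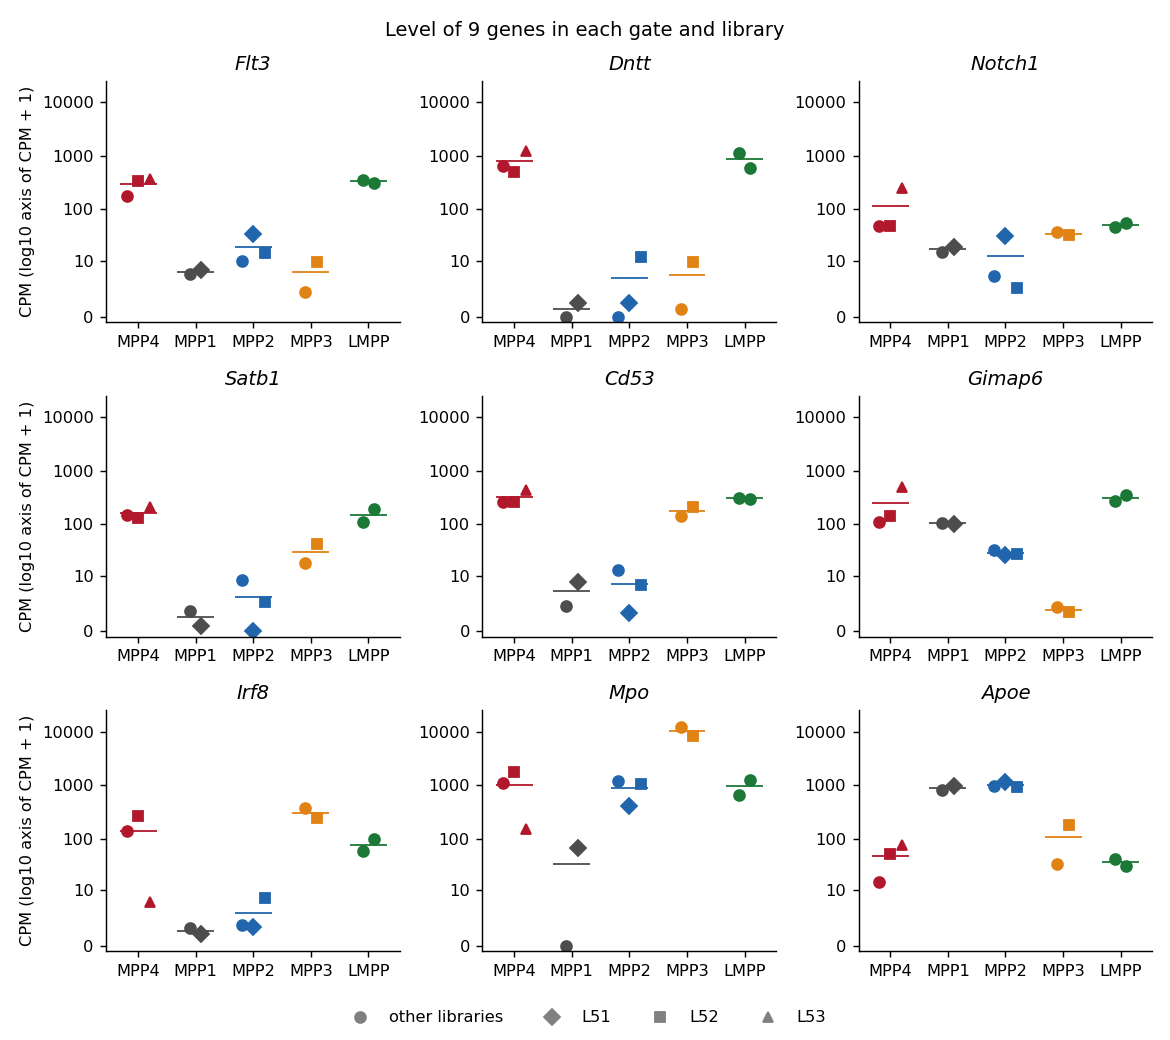
TMM-scaled CPM, on a log10(CPM + 1) axis, of 9 genes in each gate and library sum of MPP4, MPP1, MPP2, MPP3 and LMPP; points are sums, bars are means, and marker shapes single out L51, L52 and L53. Flt3 and Dntt separate MPP4 and LMPP from the 3 other gates, whereas Irf8 and Cd53 are shared with MPP3 and Mpo is highest in MPP3.

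The central comparison asked which genes, lymphoid ones among them, set MPP4 apart from its neighbouring gates. Across all genes, MPP4 differed from the mean of MPP1, MPP2 and MPP3 at 64 of 13201 genes tested (0.485%), of which 58 were higher in MPP4 (0.439%) and 6 lower (0.0455%). At an unadjusted p under 0.05 there were 1201 genes. Without L53 the count was 16 of 13167 genes (0.122%), 15 higher (0.114%) and 1 lower (0.00759%), and each of the 16 was among the 64. In that fit 57 of the 58 genes still had a log2 value above 0, and all 6 lower genes stayed below 0. When each of the 7 libraries of the 4 gates was left out in turn, 10 of the 64 calls held every time, those of Ccl3, Cd53, Ctss, Dntt, Flt3, Gimap6, Lsp1, Ly6a, Tspan13 and Wfdc17, and 54 ended without at least 1 library. The balance of directions depended on the tool: DESeq2 called 132 higher and 86 lower, and limma-voom with the library as a block called 355 higher and 166 lower. That block, which takes up the libraries shared between gates, kept 59 of the 64 calls and ended those of Hlf (adjusted p = 0.106), Cd74 (0.231), Mt1 (0.0582), Ccr9 (0.513) and St3gal6 (0.311). Since the 58 genes were called on these same sums, how they lie in them is a description. Every MPP4 sum was above all 7 other sums in 37 of them (63.8%), against 2.67% of all genes tested. Within L52, the library that holds MPP2, MPP3 and MPP4 together, 52 of the 58 had their highest of the 3 values in MPP4, against 29.4% of all genes tested. L53 was the highest MPP4 sum for 45 of the 58, against 30.3% of all genes tested. The T cells of L53 had a higher level than MPP4 of L53 for 20 of the 58, Cd53, Satb1, Gimap6 and Ctss included. The matching share over all genes was not computed.

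**Figure D3:**
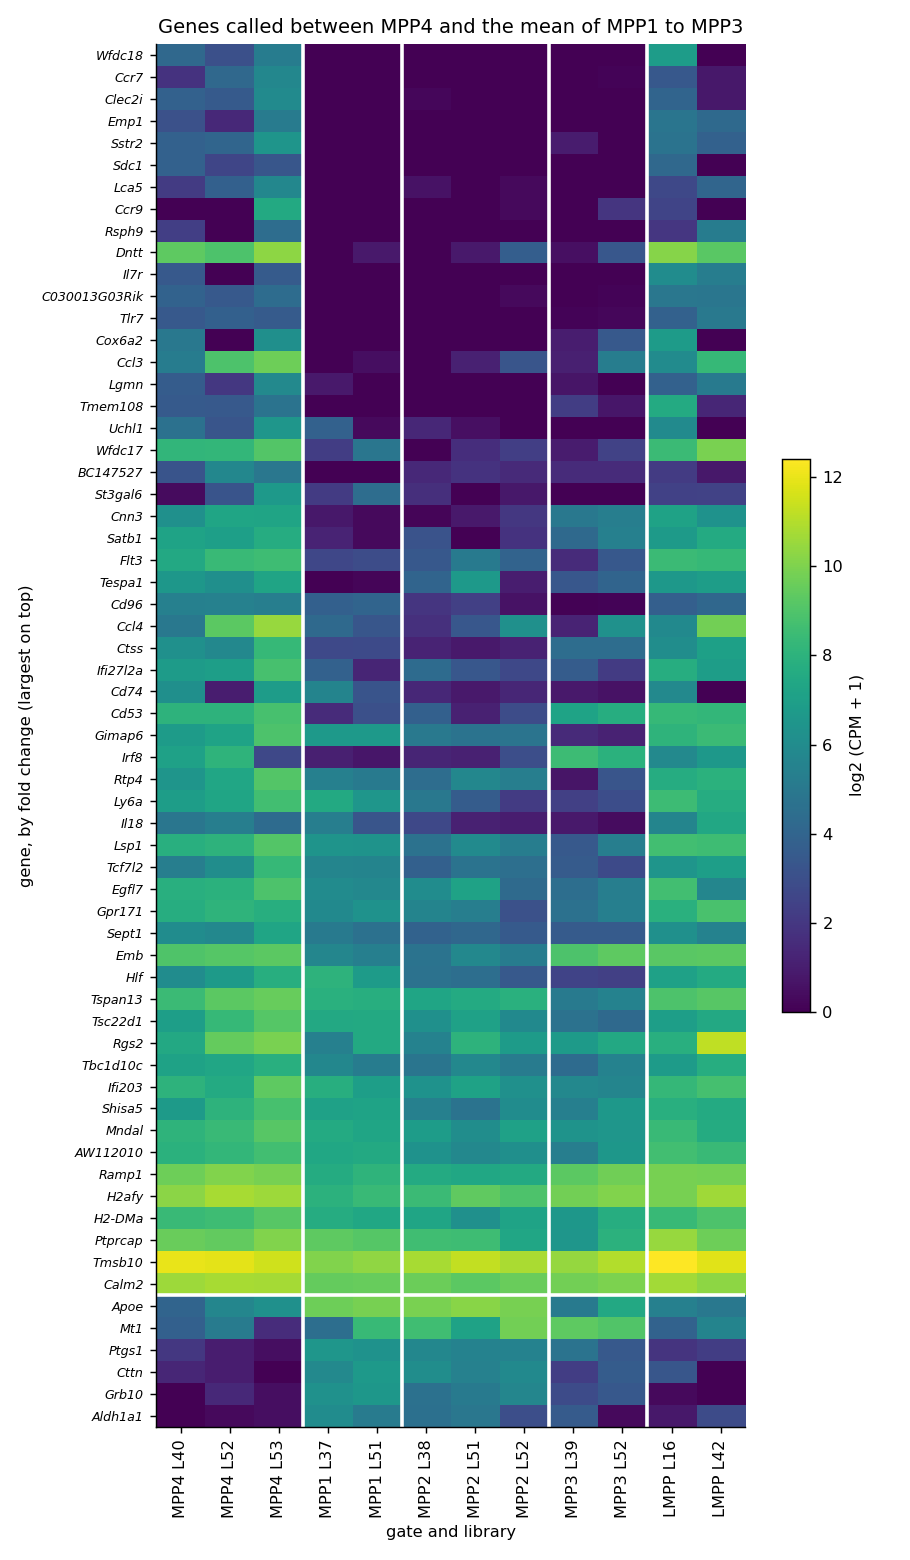
Heatmap of log2(CPM + 1) for 63 of the 64 genes called between MPP4 and the mean of MPP1, MPP2 and MPP3, in the 3 MPP4 sums, the 7 sums of the other gates and the 2 LMPP sums; 57 genes higher in MPP4 stand above the white line and the 6 lower ones under it. Of all 58 higher genes, 41 have a log2 value between -1 and 1 in MPP4 against LMPP, as have 57.7% of all genes tested.

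The gate and the lists were chosen with earlier results of these data known, so counts of list members are a description and not independent support. The lymphoid priming list held the most called genes of the 19 lists examined. Of its 18 genes 17 were tested, and all 17 had a log2 value above 0. Of these 17, 9 were called higher and none lower, where 0.439% of all genes tested were called higher. The list median was 5.09, against a median of -0.01 over all genes tested. Setting members without a count in a gate at their lower bound gave a median of 5.02. Without L53, 16 members were tested, 15 were above 0, and the median was 2.87. In that fit 3 members were called higher (Dntt, Satb1 and Lsp1), where 0.114% of all genes tested were called higher. The summed level of the list was 2354, 2241 and 3935 CPM (unscaled) in MPP4 of L40, L52 and L53, against 575 and 503 in MPP1, 523, 623 and 352 in MPP2, and 797 and 973 in MPP3. Each MPP4 sum lay above all 7 other sums, with L53 the highest.

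Among its regulators, Satb1, a chromatin organiser of early lymphoid progenitors, had 148, 127 and 208 CPM in MPP4, against 1.38 and 0.263 in MPP1, 7.91, 0 and 2.51 in MPP2, and 18.2 and 41.1 in MPP3. The groups did not overlap, and Satb1 rose by 5.13 on the log2 scale (SE 1.02, adjusted p = 0.00631). Leaving out L39, L51 or L52 ended this call (adjusted p up to 0.0777). Tespa1, which acts in thymocyte receptor signalling, had 95.2, 70.8 and 151 CPM in MPP4, 0 and 0.131 in MPP1, and 9.21 and 15.1 in MPP3, but the 101 CPM of L51 among the MPP2 sums of 14.8, 101 and 1.003 overlapped MPP4. It rose by 5.09 against the mean (adjusted p = 0.00746), and the call ended without L37, L39, L52 or L53 (adjusted p up to 0.119).

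Il7r, the interleukin-7 receptor chain that common lymphoid progenitors depend on, had 10.0, 0 and 10.8 CPM in MPP4, was at 0 in all 7 other sums, and had 65.6 and 36.9 in LMPP. The MPP4 mean was at least 67.8-fold higher than MPP1, at least 57.2-fold higher than MPP2 and at least 84.6-fold higher than MPP3, taking 3 counts over each gate as its floor (adjusted p = 0.0158 against the mean). Without L53 these bounds were 49.1-fold, 41.4-fold and 61.2-fold, and the call ended without L37, L39, L51, L52 or L53 (adjusted p up to 0.188). Ccr7, a chemokine receptor of lymphocyte homing, had 2.57, 17.1 and 51.98 CPM in MPP4 and at most 0.084 elsewhere among the 4 gates (adjusted p = 0.0378), and the call ended without any library but L40 (adjusted p up to 0.312). In MPP4 of L53, Il7r stood at 2.46% and Ccr7 at 8.11% of the level in the T cells of that library, and the part of this in the result was not tested. Ccr9, a receptor for thymic homing, had 0, 0 and 184 CPM in MPP4. All of that came from L53, where 1 cell alone held 1021 counts, and without L53 its log2 value was -2.87.

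Emb, an adhesion partner of monocarboxylate transporters, had 502, 570 and 616 CPM in MPP4 against 490 and 640 in MPP3, so these 2 gates overlapped, while MPP1 and MPP2 reached no more than 55.3. It rose by 2.49 against the mean (adjusted p = 0.00631), and the call ended without L52 or L53 (adjusted p up to 0.0652). Lsp1, an actin-binding protein of leukocytes, had 227, 258 and 546 CPM in MPP4, above the 83.8 and 81.03 of MPP1, the 24.5, 60.2 and 37.6 of MPP2 and the 10.2 and 38.4 of MPP3 (log2 2.99, SE 0.46, adjusted p = 0.000208). The recombinase genes did not pass. Rag1, which cuts antigen-receptor loci, had 0.477, 0 and 3.05 CPM in MPP4 and 0 in every other sum of the 4 gates. Rag2, its partner, had 12.2, 7.45 and 26.7 CPM in MPP4 and at most 1.30 elsewhere (log2 6.14, adjusted p = 0.143). Cd27, a costimulatory receptor, had 266, 208 and 311 CPM in MPP4, above all 7 other sums (log2 2.05, adjusted p = 0.0719).

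**Figure D4:**
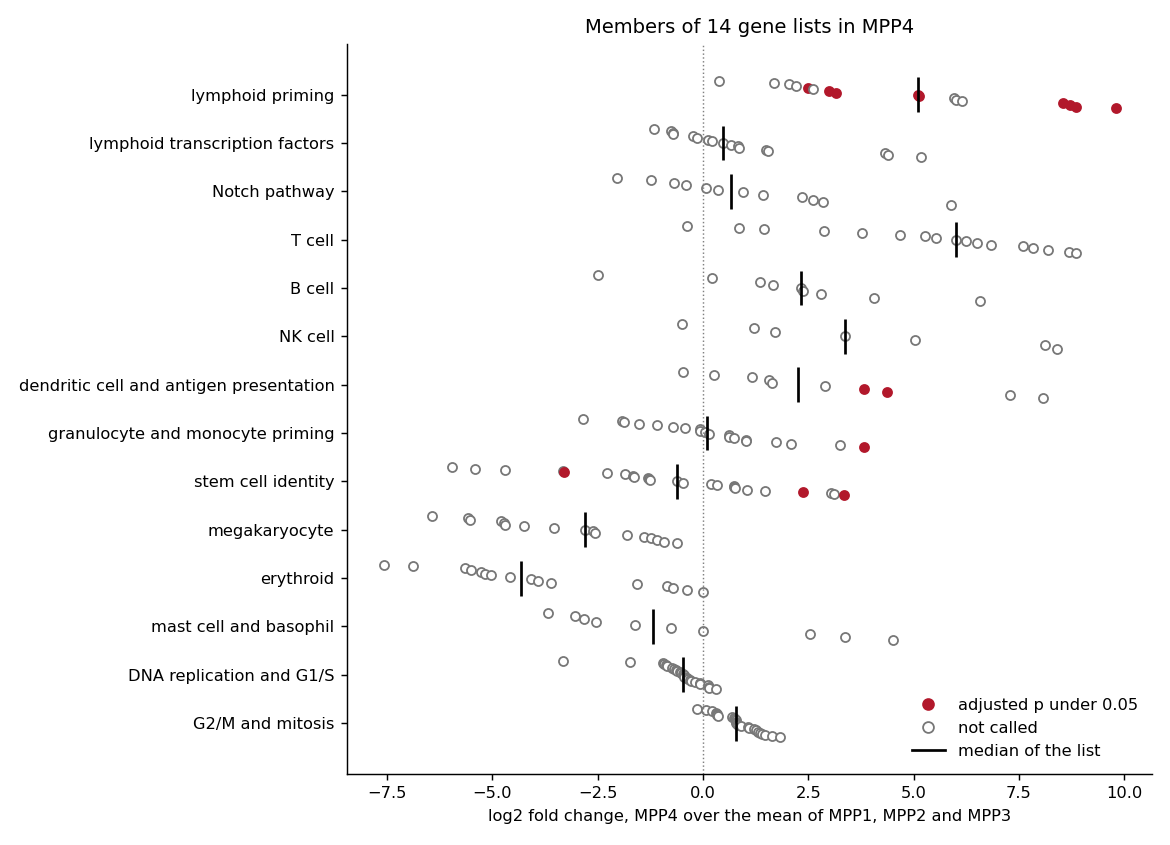
Log2 fold change of MPP4 over the mean of MPP1, MPP2 and MPP3 for the members of 14 gene lists; each point is a gene, red points passed the adjusted p of 0.05 and black bars are list medians. The lymphoid priming list has a median of 5.09 and the erythroid and megakaryocyte lists medians of -4.33 and -2.79.

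Dntt, Flt3, Lsp1, Cd53, Tspan13, Wfdc17 and Ccl3 were the 7 genes called in the main test and in every one of its 13 alternatives. Cd53, a tetraspanin of leukocytes, had 258, 256 and 440 CPM in MPP4 and 144 and 211 in MPP3, against 1.93 and 7.22 in MPP1 and 12.8, 1.24 and 6.27 in MPP2. It rose by 4.16 on the log2 scale (SE 0.75, adjusted p = 0.00216). Wfdc17, a secreted protein with a whey acidic protein domain, had 282, 292 and 535 CPM in MPP4 and no more than 28.1 in the other gates (log2 6.44, SE 1.08, adjusted p = 0.000703). Tspan13, another tetraspanin, had 350, 615 and 734 CPM in MPP4, against 234 and 219 in MPP1, 155, 192 and 231 in MPP2, and 32.1 and 45.0 in MPP3 (log2 2.25, SE 0.32, adjusted p = 7.86e-05). MPP4 lay above all other sums for each of these 3 genes.

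The chemokine genes varied widely between MPP4 libraries. Ccl3 had 36.4, 492 and 821 CPM in MPP4 of L40, L52 and L53, against 0 and 0.394 in MPP1, 0, 1.24 and 8.78 in MPP2, and 1.14 and 37.9 in MPP3. The L40 value lay just under that of MPP3 in L52, so the groups overlapped at that point (log2 7.70, SE 1.41, adjusted p = 0.00276). Ccl4, another chemokine gene of the CC class, had 30.8, 630 and 1467 CPM in MPP4 (log2 4.86, adjusted p = 0.00625) and was not called without L51 or L53 (adjusted p up to 0.16). Gimap6, a GTPase of lymphocyte survival, had 110, 144 and 499 CPM in MPP4, 106 and 101 in MPP1, 31.6, 25.2 and 26.8 in MPP2, and 1.83 and 1.25 in MPP3 (log2 3.92, SE 0.47, adjusted p = 1.63e-06), and without L53 the log2 value was 2.94 (adjusted p = 0.00207). MPP4 of L40 and L52 lay close to MPP1, and the differences were larger against MPP2 and MPP3. Ctss, the cathepsin of antigen processing, had 74.9, 55.1 and 314 CPM in MPP4 and rose by 4.81 on the log2 scale (adjusted p = 0.000231), or by 3.63 without L53 (adjusted p = 0.0339). In the T cells of L53, Gimap6 had 634 and Ctss 379 unscaled CPM, against 490 and 308 in its MPP4 cells, and the part of this in the results was not tested.

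Some genes had no count in any other gate's sum. Wfdc18, a relative of Wfdc17, had 17.2, 7.20 and 35.8 CPM in MPP4 and was at least 196.7-fold higher than MPP1, 165.7-fold than MPP2 and 245.1-fold than MPP3 (adjusted p = 0.0129 against the mean). Sdc1, the gene of the plasma cell marker syndecan-1, had 13.3, 4.97 and 9.14 CPM in MPP4 and was at least 89.5-fold higher than MPP1, 75.4-fold than MPP2 and 111.5-fold than MPP3 (adjusted p = 0.00587). Emp1, an epithelial membrane protein, had 7.49, 1.74 and 34.8 CPM in MPP4 and was at least 143.7-fold higher than MPP1 (adjusted p = 0.0114). Without L53 the bound for Emp1 against MPP1 was 45.2-fold and the adjusted p 0.109, and for Wfdc18 they were 119-fold and 0.0652, so both calls ended. For Sdc1 the bound was 89.4-fold and the call held without L53 (adjusted p = 0.0229), but it ended without L37 or L39 (adjusted p up to 0.056). The Emp1 and Wfdc18 calls ended also without L37, L39, L51 or L52 (adjusted p up to 0.162 and 0.145). Levels of these genes were low, and each floor again assumed 3 counts over the gate.

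Irf8, the transcription factor of monocytes and dendritic cells, was called higher against the mean although the gates did not order simply. It had 138, 266 and 5.56 CPM in MPP4 of L40, L52 and L53, against 1.15 and 0.657 in MPP1, 1.47, 1.24 and 6.77 in MPP2, and 368 and 242 in MPP3. MPP4 of L53 was at the level of MPP1 and MPP2, and the MPP3 sums overlapped those of MPP4 in L40 and L52. The log2 value was 3.82 against the mean (adjusted p = 0.0489), 4.38 without L53 (adjusted p = 0.0433), and -1.16 against MPP3. Because the mean is one of log2 levels, the low MPP1 and MPP2 values pull it far under the MPP3 level. The call ended with RLE scaling (adjusted p = 0.0533) and when any of L37, L38, L39, L40, L51 or L52 was left out (adjusted p up to 0.498). Hlf, a stem cell transcription factor, had 65.7, 108 and 216 CPM in MPP4, against 259 and 113 in MPP1, 24.6, 21.4 and 10.0 in MPP2, and 4.67 and 4.17 in MPP3. It rose by 2.38 against the mean (adjusted p = 0.0276), overlapped MPP1, and was not called without L53 (adjusted p = 0.43) or with the library as a block (adjusted p = 0.106).

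The 6 genes lower in MPP4 were Apoe, Ptgs1, Grb10, Mt1, Cttn and Aldh1a1. Apoe, the lipid carrier apolipoprotein E, had 14.9, 50.2 and 74.02 CPM in MPP4, against 808 and 947 in MPP1, 950, 1171 and 931 in MPP2, and 33.0 and 177 in MPP3. MPP4 lay far under MPP1 and MPP2 and overlapped MPP3 (log2 -3.29, SE 0.63, adjusted p = 0.00516), and the call ended without L40 (adjusted p = 0.05). Ptgs1, the constitutive cyclooxygenase, had 3.05, 0.994 and 0.358 CPM in MPP4, against 89.5 and 80.2 in MPP1, 53.5, 43.7 and 44.9 in MPP2, and 25.4 and 10.1 in MPP3. No sums overlapped, and Ptgs1 fell by 4.71 on the log2 scale (adjusted p = 0.00631). Grb10, an adaptor that restrains receptor tyrosine kinases, had 0, 1.74 and 0.358 CPM in MPP4, under all 7 other sums of 6.21 to 94.8, and fell by 5.63 (adjusted p = 0.0213). Mt1, a metallothionein, fell by 4.47 (adjusted p = 0.0433), Cttn, a cortical actin organiser, fell by 5.16 (adjusted p = 0.0376), and Aldh1a1, a retinaldehyde dehydrogenase of stem cells, fell by 6.74 (adjusted p = 0.035). Of these, Ptgs1, Grb10, Mt1, Cttn and Aldh1a1 were not called without L53 (adjusted p between 0.127 and 0.352). Leaving out L52 also ended the Ptgs1 call, and L40 or L51 the Grb10 call, while Mt1, Cttn and Aldh1a1 were each lost without any of at least 6 libraries.

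Other lymphoid lists were less clear. None of 17 lymphoid transcription factors was called, 11 lay above 0 and 6 below, and their median was 0.47, against -0.05 without L53. Hhex, a homeobox factor of early lymphoid cells, had 209, 291 and 207 CPM in MPP4 (log2 1.53, adjusted p = 0.113), and Id2, an inhibitor of E proteins, differed by 4.38 (adjusted p = 0.0657). For 12 Notch pathway genes there was no call and the median was 0.66, against -0.18 without L53. The direction of Maml2, a Notch coactivator, turned to -1.25 without that library. Of 17 T cell genes tested 16 lay above 0 without a call, and the T cell list summed to 82.5, 141 and 329 unscaled CPM in MPP4 of L40, L52 and L53, against 6.44 to 156 in the other gates. The T cells of L53 itself summed to 7470 for CD4+ and 10452 for CD8+ cells. Lck, a T cell kinase, had 24.2, 49.7 and 73.8 CPM in MPP4 (log2 4.68, adjusted p = 0.0635). The 9 B cell genes and the 7 natural killer genes tested held no call, with medians of 2.33 and 3.37, both 0 without L53. Of 10 dendritic cell and antigen presentation genes, Irf8 and Cd74, the invariant chain of class II molecules, were called (median 2.26), and Cd74 was not called without L53 (adjusted p = 0.194). Among 23 cytokine receptors, Flt3 and Il7r were called (median 0.66), and among 15 homing and adhesion genes 1 was called (median 0.27). No call fell among 10 mast cell and basophil genes (median -1.18) or 11 macrophage genes (median -0.54). With the library as a block in limma-voom, 2 lymphoid transcription factors, 1 Notch pathway gene, 5 T cell genes and 1 natural killer gene were called higher. In that fit 1 mast cell and 1 macrophage gene were called lower, and no B cell gene was called. Over all genes it called many more than the main test, 355 higher and 166 lower. In the same fit 3 dendritic cell, 3 granulocyte and monocyte, and 3 homing genes were called higher, and 3 cytokine receptors were called higher and 1 lower.

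The myeloid and megakaryocyte-erythroid lists set the other gates apart from each other. For 20 granulocyte and monocyte genes MPP4 lay between MPP1 and MPP3. Their summed level was 4015, 5408 and 1541 unscaled CPM in MPP4 of L40, L52 and L53, against 863 and 841 in MPP1, 4320, 1167 and 2894 in MPP2, and 43256 and 29508 in MPP3. Of the list's members 18 of 20 lay above 0 against MPP1 (median 3.61), and 19 of 20 lay below 0 against MPP3 (median -3.33), with no member called in either. Mpo, the myeloperoxidase of neutrophil granules, had 1122, 1788 and 150 CPM in MPP4, against 0 and 65.8 in MPP1, 1190, 416 and 1051 in MPP2, and 12117 and 8276 in MPP3 (log2 -3.32 against MPP3, adjusted p = 0.823). Elane, neutrophil elastase, had 346, 501 and 0 CPM in MPP4, against 13707 and 7899 in MPP3. MPP4 of L53 was lowest of the MPP4 sums for both genes.

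All 17 tested megakaryocyte genes and 15 of 16 erythroid genes lay below 0 in MPP4 against the mean, the remaining erythroid gene being at 0. Their medians were -2.79 and -4.33, and none was called. Pf4, platelet factor 4, had 0.037, 18.9 and 0 CPM in MPP4, against 1169 and 1430 in MPP1, 3020, 214 and 989 in MPP2, and 2.60 and 22.5 in MPP3. The 18.9 of L52 equalled about 1.8% of the MPP2 level in the same library, where both gates were sequenced, and its part in the result was not tested. The log2 difference was -5.58 with an adjusted p of 0.109. Gata1, the erythroid and megakaryocyte master factor, had 0, 3.23 and 1.07 CPM in MPP4, under all 7 other sums of 6.26 to 170 (log2 -5.04, adjusted p = 0.157). With the library as a block in limma-voom, 9 erythroid and 4 megakaryocyte genes were called lower, where 166 of all genes were called lower in that fit. The summed megakaryocyte level was 176, 314 and 227 unscaled CPM in MPP4, against 3088 and 3684 in MPP1, 5575, 1485 and 2109 in MPP2, and 194 and 242 in MPP3, so that MPP3 shared the low level. The summed erythroid level was 533, 483 and 611 unscaled CPM in MPP4, against 2092 and 2898 in MPP1 and 3707, 1309 and 4128 in MPP2. In MPP3 it was 1500 in L39 and 206 in L52, so MPP3 of L52 lay under every MPP4 sum.

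Stem cell identity genes were intermediate. The 25 genes summed to 2588, 2591 and 2979 unscaled CPM in MPP4, against 6431 and 5253 in MPP1, 2890, 3395 and 2090 in MPP2, and 372 and 1190 in MPP3. Against MPP1, 24 of 25 lay below 0 with a median of -2.81, and against MPP3 19 of 25 lay above 0 with a median of 1.74. Against the mean of the 3 gates, the library block called 3 of them higher and 4 lower, where it called 355 of all genes higher and 166 lower. Among 26 genes of G2/M and mitosis, 25 lay above 0 against the mean (median 0.80) with none called, whereas limma-voom with the library block called 10 higher. Against single gates, 26 lay above 0 for MPP1 and 24 for MPP3, but 17 for MPP2. The list summed to 5989, 6342 and 5681 unscaled CPM in MPP4 of L40, L52 and L53. MPP2 had 4508, 2960 and 5977, so MPP2 of L52 lay within the MPP4 range. MPP1 had 3226 and 1699, and MPP3 had 4855 and 2478. Ccnb2, a mitotic cyclin, had 446, 581 and 528 CPM in MPP4 (log2 1.64, adjusted p = 0.214). Genes of DNA replication leaned the other way, with 22 of 26 below 0 and a median of -0.47.

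Against single gates few genes passed, and the gates differed in which ones. MPP4 differed from MPP1 at 6 of 13201 genes (0.0455%; 874 at an unadjusted p under 0.05), from MPP2 at 21 (0.159%; 1241 unadjusted) and from MPP3 at 22 (0.167%; 794 unadjusted), and without L53 at 2 (0.0152%), 3 (0.0228%) and 7 (0.0532%). Against MPP1, Tespa1 was the only gene called higher (0.00758%; adjusted p = 0.0421), and 5 were lower (0.0379%). Without L53 no gene was called higher than in MPP1 (Tespa1 adjusted p = 0.155), and the 2 lower were Apoe and Gng11. Gng11 was the only 1 of the 6 called without each of the 7 libraries in turn. Gng11, a G protein gamma subunit of platelets, had 25.7, 18.6 and 15.2 CPM in MPP4 and 242 and 219 in MPP1, and fell by 3.53. Nupr1, a stress-induced chromatin protein, fell by 7.86 (adjusted p = 0.0468), and Apoe, Ptgs1 and Grb10 fell by 4.25, 5.74 and 7.20.

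Of the genes called against MPP2, 13 were higher in MPP4 (0.0985%) and 8 lower (0.0606%), and without L53 there were 2 (0.0152%) and 1 (0.00759%). Slfn2, a quiescence factor of lymphocytes, was higher by 8.01 (adjusted p = 0.0124), and Wfdc17, Cd53, Emb, Lsp1, Gimap6, Ly6a and Ctss were also higher. Itga2b, the platelet integrin chain CD41, Gata2, a stem and mast cell factor (log2 -3.89, adjusted p = 0.0239), Plxnc1, a semaphorin receptor (log2 -3.18, adjusted p = 0.0376), and Gng11 (log2 -2.36) were lower, with Apoe, Ptgs1, Cttn and Grb10. Of these 21, only Apoe was called without each library in turn, and the library block ended the calls of Gimap6 (adjusted p = 0.0535) and Ly6a (adjusted p = 0.109). Against MPP3, 20 genes were higher in MPP4 (0.152%) and 2 lower (0.0152%). The higher ones included Hlf (log2 4.87), Gimap6 (log2 7.32), Ly6a, Tspan13, Lsp1, F11r, which encodes a junctional adhesion molecule, and Il18, an interleukin-1 family cytokine. Calr, the calcium-binding chaperone calreticulin, had 388, 367 and 310 CPM in MPP4, against 1779 and 1703 in MPP3, and fell by 2.29 (adjusted p = 0.0384). Gda, guanine deaminase, had 0.073, 0.994 and 0.179 CPM in MPP4 and 72.5 and 72.3 in MPP3, and fell by 7.67 (adjusted p = 0.0418). Without L53 all 7 genes called were higher in MPP4 and none was lower, and the adjusted p was 0.238 for Calr and 0.288 for Gda. Gimap6 was the only 1 of the 22 called without each of the 7 libraries in turn.

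LMPP is the gate of lymphoid-primed progenitors. No gene was called between them by edgeR (0 of 13201, 0%), with 611 at an unadjusted p under 0.05, while DESeq2 called 94 and limma-voom with the library block 6. Flt3 averaged 297 ± 106 CPM in MPP4 (SD, n = 3) and 335 ± 27.9 in LMPP (SD, n = 2), a log2 difference of -0.18 (SE 1.02). Dntt averaged 798 ± 395 CPM in MPP4 and 871 ± 391 in LMPP (log2 -0.13, SE 1.48). With standard errors of over 1 on the log2 scale, the absence of calls does not show that the gates are alike. Of the 58 genes higher in MPP4 than in the other gates, 41 had a log2 value between -1 and 1 against LMPP, as had 57.7% of all genes tested. The lymphoid priming list split evenly, with 8 members above and 9 below 0 and a median of -0.01, and erythroid genes had a median of -2.41. Both LMPP libraries, L16 and L42, are also labelled as holding erythroid cells. The part of transcripts shared within these libraries in the erythroid value was not tested. Il7r was lower in value in MPP4 than in LMPP, but the difference of -2.88 (SE 2.17) did not pass.

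The same genes were then counted cell by cell, with every cell thinned to 20000 counts so that depth was equal. Dntt was detected in 69 of 78 MPP4 cells (88.5%, exact binomial 95% interval 79.2% to 94.6%, counting error only), against 0 of 72 MPP1 cells, where the exact interval reaches 4.99%, 7 of 72 MPP2 cells and 5 of 76 MPP3 cells. All 7 of those MPP2 cells and all 5 of those MPP3 cells belonged to L52, the library shared with MPP4, and in the other libraries of these gates no thinned cell had the transcript. Before thinning the counts were 76 of 78 MPP4, 3 of 72 MPP1, 14 of 72 MPP2 and 24 of 76 MPP3 cells. Flt3 was detected in 69 of 78 MPP4 cells, against 10 of 72 in MPP1, 10 of 72 in MPP2 and 4 of 76 in MPP3. In LMPP, Dntt was detected in 24 of 31 thinned cells and Flt3 in 28. Of the 69 MPP4 cells with Dntt, 63 also had Flt3. Notch1 did not separate MPP4 from MPP3 by cell. It was detected in 33 of 78 MPP4 cells, 13 of 72 MPP1, 6 of 72 MPP2 and 28 of 76 MPP3 cells. Within L52 it was in 2 of 16 MPP4 and 9 of 24 MPP3 cells, whereas L40 had 26 of 55 MPP4 and L39 19 of 52 MPP3 cells. Satb1 was detected in 56 MPP4 cells, against 0 of MPP1, 6 of MPP2 and 20 of MPP3, and Il7r in 6 MPP4 cells and no cell of those 3 gates. Mpo, by contrast, was detected in 75 of 78 MPP4 cells, 14 of 72 MPP1, 71 of 72 MPP2 and 76 of 76 MPP3 cells. All 14 of those MPP1 cells were among the 21 of L51, a library that also holds MPP2 cells. In L37, Mpo was detected in 0 of 51 MPP1 cells.

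Detection of several lymphoid genes in 1 cell was the common state of the gate. A thinned MPP4 cell had a median of 8 genes of the lymphoid priming list, and 75 of 78 had 5 or more. The median was 3 in MPP1, 2 in MPP2 and 4 in MPP3, where 6 of 72, 7 of 72 and 25 of 76 cells had 5 or more. LMPP shared this state, with a median of 6 and 28 of 31 cells at 5 or more. By library the MPP4 medians were 8 in L40, 6.5 in L52 and 10 in L53. The same MPP4 cells had a median of 8.5 granulocyte and monocyte genes, against 4 in MPP1, 6.5 in MPP2 and 16 in MPP3, and a median of 3.5 megakaryocyte and erythroid genes, against 11, 15 and 4. The amount of Dntt varied widely from cell to cell, with a median of 277 unscaled CPM, quartiles of 87.7 and 874 and a highest value of 4590.

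The authors' deposited cell annotation also assigns each cell a predicted type from its transcriptome. Of the 78 MPP4 cells, 46 were tMPP5, 25 tMPP4 and 7 tMPP3, and none was tMPP1 or tMPP2. Per library, L40 had 36, 14 and 5 cells of these types, L52 had 6, 8 and 2, and L53 had 4, 3 and 0. The mean share of tMPP5 was 53.4% ± 14.4 in MPP4 (SD, n = 3 sums) and 0.286% ± 0.756 in the 3 other gates (SD, n = 7 sums), with a two-sided exact permutation p of 0.00833 (adjusted 0.0208 over 5 types), the smallest that 120 regroupings can give. For tMPP4 the mean share was 39.4% ± 12.6 in MPP4 and 0.966% ± 1.83 in the other gates, with the same exact p and adjusted p. The regroupings treated all sums as independent and used no block for the library. However, L52 gave sums to MPP4, MPP2 and MPP3, and L51 gave sums to MPP1 and MPP2. Leaving out L40, L52 or L53 ended both calls, because the smallest p then possible was 0.0278, 0.0476 or 0.0278 before adjustment. Both calls also ended when only sums of at least 10 cells were used (adjusted p = 0.0893), where the smallest possible p was 0.0357. The share of tMPP2 was 0% in MPP4 and 52.4% ± 38.97 in the other gates (exact p = 0.0667, adjusted 0.111). The 3 other gates had mostly different types: MPP1 held 38 tMPP1 and 33 tMPP2 cells, MPP2 held 64 tMPP2 cells and MPP3 held 73 tMPP3 cells. LMPP held 22 tMPP4 and 9 tMPP5 cells. These types were not confined to MPP4 and LMPP. Among further steady-state gates, ST_HSC held 26 tMPP4 and 11 tMPP5 cells, and HPC3 held 16 and 8.

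**Figure D5:**
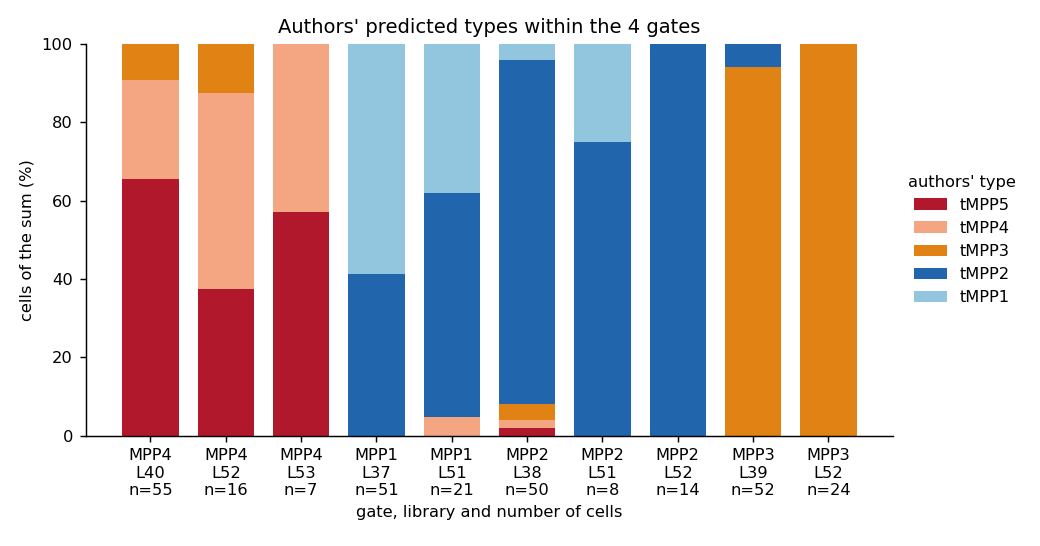
Share of cells (percent) in each predicted type of the authors' annotation for the 10 gate and library sums of MPP4, MPP1, MPP2 and MPP3, as stacked bars with the number of cells per sum. The 3 MPP4 bars consist of tMPP5, tMPP4 and, in L40 and L52, tMPP3, and the bars of the other gates are almost all tMPP1, tMPP2 or tMPP3.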

How the data were processed

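Per the submitters' processing notes, the authors aligned reads with TopHat to mm10 and counted them per gene with HTSeq (no versions given), and they deposited 1 table of raw counts per gene and cell; whether these are reads or molecules is not given in the sources used here. Of 2879 cell columns, 578 without an annotation entry were left out; 23154 genes were listed and none is mitochondrial. Counts were summed per gate and library where at least 5 cells were present: 37 sums of 14 stem cell and progenitor gates from 24 libraries entered 1 fit. edgeR 4.0.16 (filterByExpr, TMM, quasi-likelihood F test, two-sided) in R 4.3.3 gave log2 fold changes, with Benjamini-Hochberg adjustment over the 13201 genes tested in each comparison and adjusted p under 0.05 called; SE is the absolute log2 value over the square root of F. Alternatives used DESeq2 1.42.0 and limma 3.58.1. Cells were thinned once, at random, for detection. Doublets were not removed here. The scripts were tested on simulated data.

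Genes were named by size of change, 10 called genes in each direction per comparison, given a count in every sum of the higher gate (for lower genes, in 50% or more of the sums of the other gates), up to 4 members of each of 19 lists by smallest p, the markers and the gate surface genes; predicted, ribosomal and sex-linked marker genes were left out. Ccl4, Ccr9, Cd27, Cd8a, Cd8b1, Elane, Mpo, Rag1, Rag2, St3gal6 and Tspan13 fall outside that rule and were named after their values were seen. A called gene of the lymphoid priming list is not reported here by name. The gate and the lists were chosen with earlier results of these data known. Group sizes of 2 or 3 libraries and a biological coefficient of variation of 0.999 set the precision. Intervals on shares are exact (Clopper-Pearson). Sequences are from RefSeq.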

Additional observations from a re-analysis of the deposited data

How the results depend on the processing

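The 64 genes called against the mean of MPP1, MPP2 and MPP3 became 245 without a filter on low counts, 218 with DESeq2, 119 with limma on mean log values per cell and 235 with only the compared gates in the fit. For the single gates, the counts in the same order of settings were 116, 158, 54 and 99 against MPP1, 144, 234, 249 and 245 against MPP2, 148, 192, 193 and 100 against MPP3, and 18, 94, 17 and 3 against LMPP. The replicate block, with the library as block in limma-voom (consensus correlation 0.1707), gave 521 against the mean, 475 against MPP1, 404 against MPP2, 532 against MPP3 and 6 against LMPP; it moved the median log2 of all genes to -0.107 against the mean. Leaving out 1 library at a time gave 16 to 53 against the mean, 2 to 28 against MPP1, 2 to 25 against MPP2, 1 to 31 against MPP3 and 0 against LMPP. The lowest counts were those without L53 (16, and 2 for MPP1), L40 (2 for MPP1), L38 (2 for MPP2) and L39 (1 for MPP3). The difference in tMPP4 share was 36.6 percentage points with at least 10 cells per sum, where both share calls ended (adjusted p = 0.0893), and 32.8 to 45.5 without 1 library; for tMPP5 it was 51.1 and 47.04 to 60.9. Directions reversed for Mcpt8 (-0.013 on mean log values) and Kit (-0.107 with the library block, -0.139 on mean log values), and without L53 for Maml2, Ccr9 and Kit, whose values without 1 library ran from -1.25 to 4.35, -2.87 to 12.2 and -0.197 to 0.328. The cause of these changes was not tested, except that dropping a library leaves fewer samples. Each gate had 2 or 3 libraries, and with so few a difference that missed the threshold was not shown to be absent.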

Other observations

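The 3 predicted types within the MPP4 gate differed in myeloid, cell cycle and stem cell genes. These types were derived from the same transcriptomes, so the values are a description without a test. The libraries differed in their mix of types and in some of these genes, so values are given within L40 and then L52; L53 held no tMPP3 cell. The granulocyte and monocyte list summed to 16575 and 7539 unscaled CPM in tMPP3 (5 and 2 cells), against 2885 and 4535 in tMPP5 (36 and 6 cells) and 2377 and 4133 in tMPP4 (14 and 8 cells). Irf8 had 713 and 580 CPM in tMPP3, 64.9 and 118 in tMPP5, and 114 and 81.7 in tMPP4. Dntt had 78.8 and 113 CPM in tMPP3, 713 and 800 in tMPP5, and 671 and 506 in tMPP4, and Hlf had 6.33 and 2.20 CPM in tMPP3 against 60.5 to 157 in the other types. In both libraries tMPP3 was thus highest for Irf8 and lowest for Dntt and Hlf, on 7 cells in all. The G2/M list summed to 7764, 10202 and 8635 CPM in tMPP5 of L40, L52 and L53, against 1817, 473 and 643 in tMPP4, so tMPP5 was higher in each library. Ly6a ran the other way, with 64.01, 188 and 217 CPM in tMPP5 and 299.9, 276 and 712 in tMPP4.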
